A study of Mus musculus with 3 samples.

Results

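Cluster 5 is a group of keratinocytes from the mouse anorectal junction that expresses the mucosal keratin Krt13 together with Psca and Ltf. Its members are the cells that the authors' deposited cell table numbers 5 and names keratinocytes. They came to 2402 of the 37080 cells in the table and of 20321 keratinocytes, of which 87 were from day 0, 162 from day 7 and 2153 from day 42. The gut lining changes at the anus from the columnar epithelium of the colon to a squamous epithelium, and the study sampled distal colon and anus around an episode of chemical colitis.

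All mice were C57Bl/6, bought at 6 weeks of age. The day 0 mice were untreated and their tissue is labelled histologically normal. The day 7 and day 42 mice drank 3% dextran sulfate sodium (DSS), a detergent-like sugar polymer that injures the gut lining, for 6 days from day 0, and their tissue is labelled as severe colitis and as recovered. Tissue of 5 mice per day was pooled, digested with trypsin, depleted of dead cells by Annexin V and made into 1 droplet library of 3' ends per day. The differences between days below therefore compare single libraries with no replicate, carry no test, and cannot be told apart from differences between pools, dissections or library preparations.

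The libraries held 11037, 14376 and 11667 cells with median depths between 5708 and 6217.5 unique molecular identifiers (UMIs, each a captured molecule). Cluster 5 itself held 1337459, 3443873 and 18590791 UMIs. Here and below, 3 values in a row without other labels are those of days 0, 7 and 42, in that order. Its median depth per cell was 13340, 18530.5 and 7560 UMIs, so its day 42 cells were the shallowest and its day 0 profile rested on the fewest cells. The median mitochondrial share of UMIs was 6.70%, 5.93% and 5.88%. Pairs of libraries shared 40 to 55 cell barcodes, 139 in all, and 19 cells of cluster 5 carried a shared barcode, none of which was in cluster 5 in both libraries.

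A stratified squamous epithelium is renewed by a basal layer that makes Krt5 and Krt14. Cells that leave this layer become suprabasal: in moist mucosa such as oral, oesophageal and anal lining they switch on Krt4 and Krt13, whereas in epidermis they make Krt1 and Krt10. Further up they assemble the cornified envelope, a cross-linked protein shell made of small proline-rich (SPRR) proteins, filaggrin and related components. Mucosal surfaces also secrete iron-binding, protease-inhibiting and chemoattractant proteins.

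The 6 markers given for this cell type were found on every day, and cluster 5 had more of each than the 8 other keratinocyte clusters with at least 50 cells. Levels are CPM, the UMIs of a gene over all UMIs of the cluster's summed cells in a library, scaled to 1e+06, which compare a gene between days and cell groups. Psca, a small surface protein anchored by lipid, stood at 15015, 3804 and 6452 CPM. Ltf, the iron-binding protein lactoferrin, was at 2951, 1481 and 3788 CPM. Krt19, a keratin of simple and junctional epithelia, was at 3744, 1526 and 2551 CPM. Krt13 was at 17459, 9699 and 8895 CPM. Prss27, a serine protease, was at 269, 510.5 and 515 CPM. Psca, Krt19 and Krt13 were thus highest at day 0, Ltf at day 42, and Prss27 was lowest at day 0. The T cell list of 10 genes summed to 11.2, 25.6 and 20.3 CPM, with Cd3d, Cd3e and Cd3g at 0 UMIs at days 0 and 7. The 5 markers of epidermal suprabasal cells summed to 760, 688 and 502 CPM, against 24640, 22807 and 20302 CPM in cluster 4. Basal keratins were abundant. The 5 basal markers summed to 12106, 25409 and 26302 CPM, against 13790, 13981 and 21599 CPM in cluster 1, a basal-keratin cluster. Cluster 5 thus had the higher sum at days 7 and 42, but nearly all of its sums came from Krt14, Krt5 and Krt15. The basal gene Col17a1, which is no keratin, was lower in cluster 5 than in cluster 9 on every day. Its log2 ratios, with 10 CPM added to both, were -3.87, -2.91 and -2.67. Genes of the clustered cells set the clusters, so these levels describe the label and are no test of it.

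Beyond the 6 markers, the genes that stood furthest above every other keratinocyte cluster were ranked by the log2 ratio to the highest other cluster, with 10 CPM added to both, averaged over days. Of the 15 highest, the 14 reported here were Psca, Ltf, Aldh1a3, Ppbp, Mal, Lmo7, Slc6a14, Prss22, Nccrp1, Muc4, Krt19, Prss27, Elf3 and Adam28, with averages from 2.85 for Psca down to 1.91 for Adam28. Tmprss11g at 1.89, Nupr1 at 1.88 and Ceacam1 at 1.85 fell just outside. Aldh1a3 makes retinoic acid from retinal, Ppbp is a neutrophil-attracting chemokine, Mal is a membrane protein of apical transport, Slc6a14 is an amino acid transporter, Muc4 is a membrane mucin and Elf3 is an epithelial transcription factor. Genes at least 2-fold above the highest other cluster numbered 234, 146 and 36, or 2.86%, 1.91% and 0.446% of the genes with at least 20 CPM in either. With cells filtered at 1000 UMIs, 500 genes and 20% mitochondrial UMIs the day 42 number was 73.

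**Figure D1:**
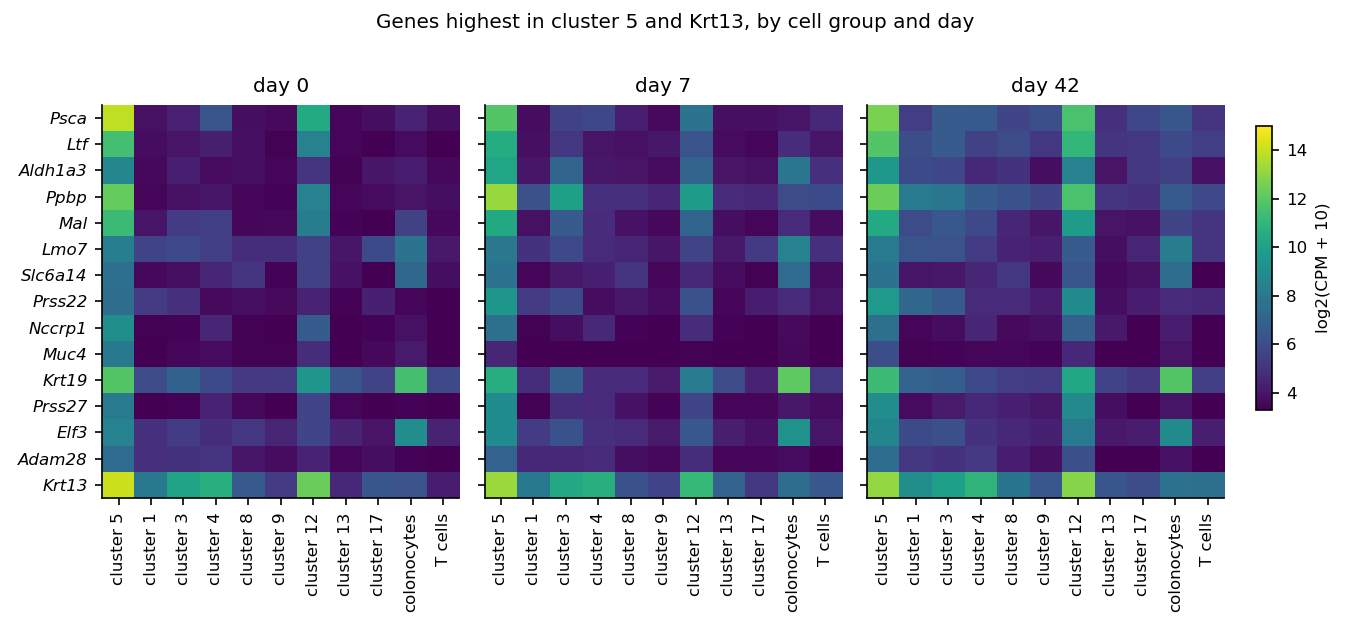
Heat map of log2(CPM + 10) for 14 of the 15 genes highest in cluster 5 over other keratinocyte clusters and for Krt13, by day, in cluster 5, 8 other keratinocyte clusters, colonocytes and T cells. Cluster 12 is the keratinocyte cluster with the next highest Psca on each day, and colonocytes share Krt19, Elf3 and Slc6a14.

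Cluster 12 was the highest other keratinocyte cluster for all 6 markers on every day. This ranking rests on the 6 markers and on keratinocyte clusters alone, and no distance over all genes was computed. The 6 markers summed to 42293, 19039 and 24390 CPM in cluster 5, against 8158, 2975 and 15790 CPM in cluster 12. In colonocytes they summed to 3062, 4563 and 4050 CPM, above cluster 12 at day 7. Cluster 12 differed from cluster 5 in the 5 epidermal suprabasal markers, which summed to 8748, 2432 and 3485 CPM there and to 760, 688 and 502 CPM in cluster 5. The log2 ratio of Psca over cluster 12 was 3.41, 4.12 and 1.01, and that of Krt13 was 1.74, 2.11 and 0.26. Cluster 12 held 51, 1668 and 152 cells of low depth, with median UMIs of 1948, 1672.5 and 1010.5, and its median mitochondrial share was 0.179%, 5.00% and 0.225%. The part of these low-depth cells in the numbers of genes above every other cluster was not tested. In cluster 1, the largest keratinocyte cluster at day 42, the 6 markers summed to 314, 287 and 801 CPM. Colonocytes shared Krt19, at 2974, 4357 and 3688 CPM, but held Krt13 at 69.4, 164 and 201 CPM.

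**Figure D2:**
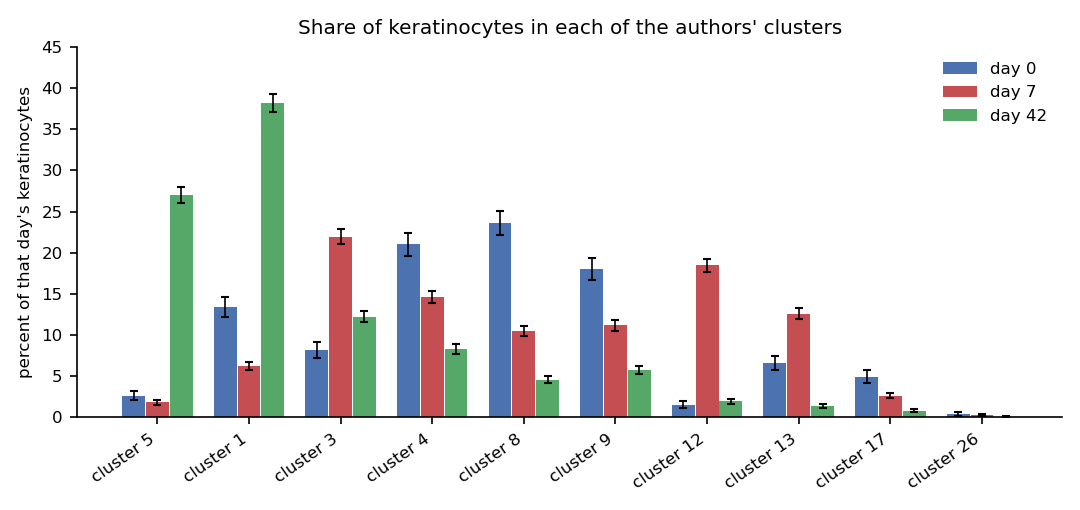
Share of each day's keratinocytes in the authors' keratinocyte clusters, in percent, with exact Clopper-Pearson 95% intervals that cover counting error only. Cluster 5 took 2.62%, 1.79% and 27.0% on days 0, 7 and 42.

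As the authors' table numbers the cells, cluster 5 took a larger part of the keratinocytes in the day 42 library than in the others, and the size of that difference depended on how the cells were grouped. It made up 2.62% of the 3316 keratinocytes at day 0 (exact Clopper-Pearson 95% interval 2.11% to 3.23%) and 1.79% of 9035 at day 7 (1.53% to 2.09%). At day 42 it made up 27.0% of 7970 (26.04% to 28.00%). Of all cells it was 0.788%, 1.13% and 18.5%. These intervals cover counting error only, and the amounts of colon and anus in each pool, which would also set the shares, are not given in the sources used here. Cluster 1, a basal-keratin cluster, had the same order of days, with 13.4%, 6.23% and 38.2% of keratinocytes, while clusters 4, 8 and 9 each took less of the keratinocytes at day 42 than at day 0. Cluster 12, the highest other keratinocyte cluster for the 6 markers, took 1.54%, 18.5% and 1.91% of keratinocytes. Clusters 5 and 12 together, a grouping added after seeing the data, took 4.16%, 20.3% and 28.9%, so day 42 was still the highest but day 7 lay much nearer to it. Whether the low-depth cells of cluster 12 are fragments or nuclei of cluster 5 cells was not tested. With keratinocytes clustered anew, the new cluster with most cluster 5 cells held 26, 97 and 686 cells, or 0.784%, 1.07% and 8.61%. The 3 new clusters made mostly of cluster 5 cells took 4.37%, 5.71% and 21.6%, so day 42 was again the highest, but the day 7 share lay above the day 0 share. Those new clusters were chosen after seeing the data and held 74.9% of cluster 5.

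Cells of cluster 5 differed in how many of the 6 markers they held. To compare cells of unequal depth, each was thinned to 1000 UMIs, which left out 1 cell at day 0 and none later. At least 2 of the 6 markers had a UMI in 83.7%, 70.4% and 69.1% of cluster 5 cells. The 95% intervals of these shares run from 74.2% to 90.8%, from 62.7% to 77.3% and from 67.1% to 71.0%. The same share was 1.13%, 0.178% and 6.57% in cluster 1, and 0%, 0.926% and 2.22% in T cells, which should lack these genes and so give a rough level of free RNA. That level differs between cell types: the 6 markers summed to 134, 142 and 356 CPM in T cells and to 159, 182 and 638 CPM in fibroblasts. T cells were shallower than cluster 5, with median depths from 1393 to 2260 UMIs before thinning, and for 0 of 195 thinned T cells at day 0 the interval reaches 1.87%. Cluster 5 was uneven within a day: at day 42, 27.6% of its cells held 1 marker and 14.4% held all 6.

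**Figure D3:**
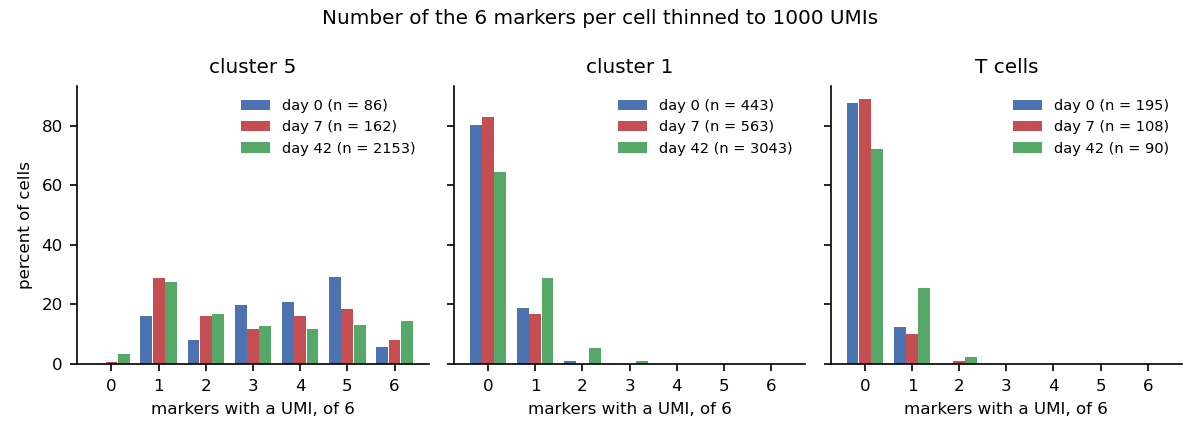
Percent of cells, thinned to 1000 UMIs, by the number of the 6 markers with a UMI, in cluster 5, cluster 1 and T cells on each day. Cluster 5 cells spread from 0 to 6 markers, with 0%, 0.617% and 3.30% at 0, and most cells of cluster 1 and most T cells held 0.

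The cells with 1 marker held Krt13 in nearly every case, in 14 of 14, 43 of 47 and 559 of 595 cells. A split by markers held is a range and not a cell type, and at day 42 it placed 666 cells at 0 or 1 marker, 361 at 2 and 1126 at 3 to 6. In that order the thinned day 42 cells had 372, 1266 and 9601 CPM of Ppbp, 225, 429 and 2237 CPM of Mal, and 119, 368 and 1198 CPM of Aldh1a3. Cxcl5, a chemokine, followed the same order with 174, 321 and 2058 CPM, and so did Krt7, a keratin of ducts and glands, with 841, 1532 and 3238 CPM. Krt14 did not, at 20266, 21241 and 17713 CPM, nor did the Ly6 family surface protein Ly6d, at 6767, 7424 and 7239 CPM. Within a cluster 5 cell at day 42, Ltf had a UMI in 77.5% of the 1023 cells with Psca and in 21.9% of the 1130 without it. At day 7 these shares were 63.3% of 79 cells and 19.3% of 83.

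The day comparisons below use the log2 ratio of CPM with 10 CPM added to both days, over genes with at least 20 CPM in either day, and count genes past 2-fold. At day 7, 128 of 5266 genes were higher than at day 0 and 205 lower (2.43% and 3.89%, or 6.32% either way). At day 42, 117 of 5372 genes were higher than at day 0 and 171 lower (2.18% and 3.18%, or 5.36%). Set against day 7, the day 42 library had 72 of 5159 genes higher and 52 lower (1.4% and 1.01%, or 2.4%). With median-of-ratios size factors, 48.5% of the calls at day 7 against day 0 were higher, against 38.4% here, and 47.9% of those at day 42 against day 7, against 58.1% here. The excess of lower genes at day 42 against day 0, where 40.6% of calls here were higher, also depended on the cells used, with 53.0% higher in the new cluster with most cluster 5 cells, 50.4% in the 3 new clusters and 49.3% in thinned cells. At day 7 against day 0 the new clusters gave 55.4% and 48.9%, and at day 42 against day 7 thinned cells gave 68.2%. The first pair of comparisons shares the day 0 library and the others also share libraries, so they are set side by side and not counted as repeats of each other. Of 1201 genes with a mean of at least 100 CPM over the days, 1068 (88.9%) passed 2-fold in no comparison. A list member could reach 20 CPM through 1 day alone, so the counts and medians over tested members below describe those members and support nothing beyond them.

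Several mucosal keratins were lower, and the basal pair Krt14 and Krt5 higher, after DSS than at day 0. Of 8 mucosal suprabasal keratins, 1 was past 2-fold higher than its day 0 level at day 7 and 4 lower, and their median log2 ratio was -1.03, against -0.04 over all genes tested. In the day 42 library 0 were higher than at day 0 and 4 lower, and the median was -1.15 against 0.04. Over all genes tested 2.43% were higher and 3.89% lower at day 7, and 2.18% and 3.18% at day 42. Krt4, the partner of Krt13 in mucosal filaments, was at 10195, 2593 and 1362 CPM. Its day 42 level was 0.134 times its day 0 level (95% counting interval 0.131 to 0.136), and the 3 days' intervals did not overlap. Thinned cells with a Krt4 UMI followed the same order, at 91.9%, 74.1% and 35.9%, while Krt13 had a UMI in 100%, 94.4% and 93.0%. Krt23, Krt78 and Krt80 were the other members of this list past 2-fold lower in both comparisons. Krt6a, a keratin of fast-renewing and wounded epithelium, was at 6218, 8538 and 7862 CPM and passed 2-fold in none.

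Krt14 had the other order, at 5395, 20536 and 19904 CPM, lowest at day 0. Its day 7 level was 3.81 times that of day 0 (3.72 to 3.90) and its day 42 level 3.69 times (3.60 to 3.78). Krt5, its basal partner, was at 1973, 4229 and 5090 CPM. Thinned cells with a Krt14 UMI made up 75.6%, 96.9% and 95.8% of cluster 5. In T cells, where keratins mark free RNA, Krt14 was at 308, 621 and 772 CPM, so it was higher there too after DSS but at a small part of the cluster 5 level. Fibroblasts held more basal keratin than T cells: the 5 basal markers summed to 988, 1527 and 3602 CPM in fibroblasts and to 666, 895 and 1259 CPM in T cells. The part of free RNA in the cluster 5 values was not tested. Of 16 listed basal keratinocyte genes, 13 were tested between days 0 and 7, with 4 higher at day 7 (Krt14, Krt5, Lama3, Lamb3) and 1 lower, and a median of 0.64. Between days 0 and 42, 5 of 12 were higher at day 42 (Krt14, Krt5, Lama3, Lamb3 and the integrin Itgb4) and 1 was lower, with a median of 0.85. The lower gene was in each case Krt15, a keratin of quiescent basal cells, at 4589, 504 and 1108 CPM. Among all genes tested 2.43% were higher and 3.89% lower at day 7, and 2.18% and 3.18% at day 42. Krt4 and Krt14 were detected together in 68.6%, 71.6% and 33.5% of thinned cells.

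Krt16 and Krt17, keratins switched on at wound edges, were high in the day 7 library alone. Krt16 was at 378, 2470 and 596 CPM and Krt17 at 403, 2397 and 487 CPM. In the day 7 library they were 6.54 times (5.98 to 7.17) and 5.95 times (5.45 to 6.50) their day 0 levels. Neither was past 2-fold between days 0 and 42. Krt6a has a near-identical copy in Krt6b, so how reads were shared between that pair is uncertain.

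More than 10 of the cornified envelope genes tested were lower after DSS than at day 0. Of 21 tested between days 0 and 7, 3 were higher at day 7 and 11 lower, and the median log2 ratio was -1.04. Between days 0 and 42, 1 of 19 was higher at day 42 and 15 lower (median -1.46), and between days 7 and 42, 0 of 17 were higher at day 42 and 7 lower (median -0.50, against 0.06 over all genes tested). In the same order of comparisons, 2.43%, 2.18% and 1.4% of all genes tested were higher and 3.89%, 3.18% and 1.01% lower. Sprr3, an SPRR protein of oesophageal and oral lining, was at 695, 239 and 20.1 CPM. Cnfn, which encodes the envelope protein cornifelin, was at 2671, 1289 and 423 CPM, and Crct1, a late differentiation gene, at 518, 123 and 37.1 CPM. Sprr1a was at 5324, 2728 and 1198 CPM. Flg, which encodes filaggrin, was at 169, 5.52 and 10.1 CPM, and Rptn, which encodes repetin, at 160, 5.81 and 10.4 CPM. For Sprr3, Cnfn, Crct1 and Sprr1a the levels descended from day 0 through day 7 to day 42, and for Flg and Rptn the day 7 and day 42 levels were both far under that of day 0.

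Few cells carried the day 0 levels of the latest of these genes. The 10 cells with the most UMIs of the gene held 95.5% of the Sprr3 UMIs at day 0, 96.1% of Crct1, 81.0% of Flg and 90.2% of Rptn, but 70.4% of Cnfn and 51.7% of Sprr1a. When the 10 cells richest in a gene were left out on each day, which is 10 of 87 cells at day 0 and 10 of 2153 at day 42, this brought Sprr3 from -4.55 to -1.26 for days 42 and 0. It brought Crct1 from -3.49 to -0.69, Flg from -3.15 to -1.89 and Rptn from -3.06 to -1.19. Cst6, a protease inhibitor of the envelope, went from -3.20 to -0.57, and the protease gene Asprv1 from -3.17 to -0.93. Crct1, Cst6 and Asprv1 were thus within 2-fold without those cells. Krt4 went from -2.89 to -2.81, and Calm4, a calmodulin-like gene of differentiating keratinocytes, from -3.55 to -2.93.

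Some SPRR genes went against the rest. Sprr2d was at 59.1, 718 and 503 CPM, and its later levels were 12.2 times (9.71 to 15.4) and 8.52 times (6.83 to 10.8) the day 0 level. Sprr2h was at 11.2, 119 and 16.8 CPM, high at day 7 alone. Sprr2a3 was at 1089, 1344 and 1064 CPM. The Sprr2 genes lie side by side on chromosome 3 and are close copies, so how 3' reads were shared among them is uncertain. After thinning, 4.65%, 22.2% and 8.69% of cluster 5 cells had a Sprr2d UMI, against 0% to 0.355% in cluster 1 and 0% to 0.926% in T cells. At day 42 Sprr2d was at 0 CPM in the thinned cells with 0 or 1 marker and at 1020 CPM in those with 3 to 6.

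**Figure D4:**
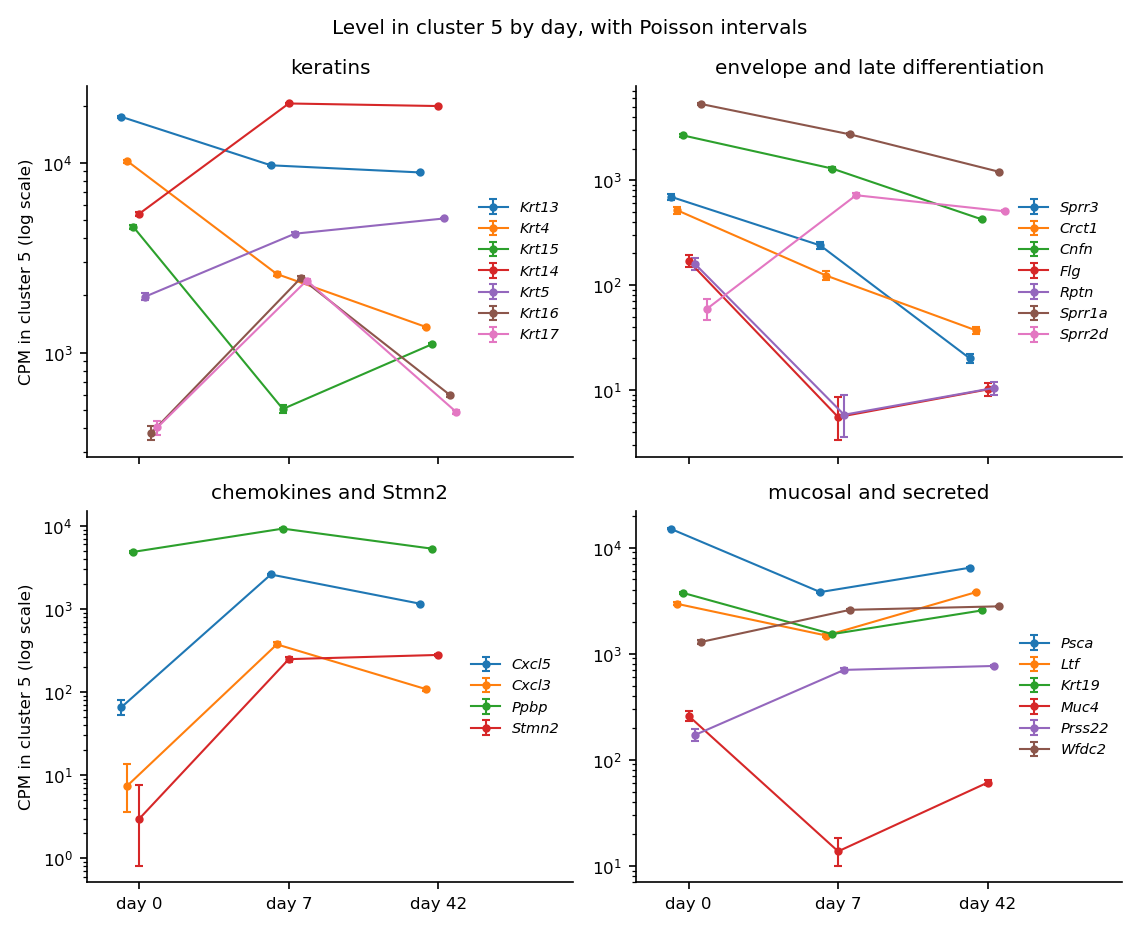
CPM in cluster 5 on a log axis at day 0, day 7 and day 42 for keratins, cornified envelope genes, chemokines with Stmn2, and mucosal or secreted products, with exact Poisson 95% intervals. Krt14 and Krt5 lie above their day 0 levels at days 7 and 42, Krt4 and Sprr3 below, and Cxcl5 and Stmn2 far above.

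Chemokine genes stood among the highest ratios to day 0. Ppbp, Cxcl5, Cxcl3 and Cxcl2 encode chemokines that attract neutrophils through the receptor CXCR2, and they lie together on chromosome 5, at chr5:90768518-90770063, chr5:90759360-90761624, chr5:90786103-90789600 and chr5:90903871-90905938 (GRCm38). Cxcl5 was at 65.8, 2600 and 1156 CPM. Its day 7 level was 39.5 times that of day 0 (32.0 to 49.3), and its level in the library labelled recovered was 17.6 times (14.3 to 21.9). Cxcl3 was at 7.48, 375 and 108 CPM. Cxcl2 had 0, 545 and 478 UMIs, which is 0, 158 and 25.7 CPM. Against a floor of 3 counts at day 0 it was at least 70.6-fold higher at day 7 and at least 11.5-fold higher at day 42. Ppbp was already abundant at day 0, with 4868, 9277 and 5315 CPM. Of the 6 genes of the chemokine list tested between days 0 and 7, 4 were higher at day 7 (Csf3, Cxcl2, Cxcl3, Cxcl5) and 2 lower (Cxcl14, Cxcl16). Between days 0 and 42, 3 were higher at day 42 (Cxcl2, Cxcl3, Cxcl5) and 1 lower (Cxcl14). The shares over all genes tested were 2.43% higher and 3.89% lower at day 7, and 2.18% and 3.18% at day 42.

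These values differ in how far other cells and few cells bear on them. Cxcl5 was at 0 to 54.3 CPM in T cells and at 0.245 to 123 CPM in cluster 1 over the 3 days. It was at 1.30, 592 and 117 CPM in cluster 3 and at 0, 378 and 579 CPM in cluster 12, lowest at day 0 in both. Cluster 5 had the highest level among the keratinocyte clusters each day, by 2.45, 2.12 and 0.98 on the log2 scale over the next. Cxcl2 was at 139, 525 and 100 CPM in T cells, above cluster 5 on every day, and at 12525 CPM in neutrophils at day 7. The 10 cells with most Cxcl2 held 78.7% of its UMIs in cluster 5 at day 7, and without such cells its log2 ratio for these days was 2.26 in place of 4.07. Csf3, which encodes the granulocyte growth factor G-CSF, had 90.9% of its day 7 UMIs in 10 cells. For Cxcl5 the share was 48.5% at day 7, and 87.5% of its 88 UMIs at day 0. Without the 10 cells of each day the ratio was 6.29 in place of 5.11, which also takes 10 of 87 cells from day 0 and so is no sign of what the richest day 7 cells add. Ppbp went from 0.93 to 1.84. Most cells with Cxcl5 also held Ppbp: Ppbp had a UMI in 90% of the 70 thinned day 7 cells with Cxcl5 and in 34.8% of the 92 without, and in 88.1% of 595 and 31.3% of 1558 at day 42. The reverse held less often. Both genes were found in 38.9% of thinned cells at day 7 and 24.3% at day 42, and Ppbp without Cxcl5 in 19.8% and 22.6%. At day 0 only 4 thinned cells had Cxcl5.

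The stretches of sequence before the start sites of these genes are shown because the neighbouring genes differed in their ratios to day 0. They are taken from RefSeq (GRCm38.p6), on the strand of the gene, which is the plus strand for all 4, and the capitals mark a match to a searched motif. The motifs were GGAATTTCC, a site of the NF-κB type, and TGANTCA, a site of the AP-1 type, on either strand within 250 bases before the start.
Cxcl2 (chr5:90903743-90903871): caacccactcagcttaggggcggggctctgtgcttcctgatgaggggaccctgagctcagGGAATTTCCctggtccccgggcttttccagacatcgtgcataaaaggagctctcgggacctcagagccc
Cxcl3 (chr5:90785969-90786097): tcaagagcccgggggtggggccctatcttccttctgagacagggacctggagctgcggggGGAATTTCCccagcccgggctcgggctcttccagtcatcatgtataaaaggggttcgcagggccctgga
Ppbp (chr5:90768268-90768380): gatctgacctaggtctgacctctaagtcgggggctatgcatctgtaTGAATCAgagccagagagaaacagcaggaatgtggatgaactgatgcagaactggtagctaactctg
Sprr2d (chr3:92338890-92339013): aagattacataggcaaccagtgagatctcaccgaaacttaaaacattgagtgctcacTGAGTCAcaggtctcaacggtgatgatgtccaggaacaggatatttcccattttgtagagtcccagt
Counted from the RefSeq start of each promoter, the GGAATTTCC run lies 88 to 96 bases before the Cxcl2 start and 64 to 72 bases before the Cxcl3 start. The TGANTCA run lies 198 to 204 bases before the Ppbp start and 187 to 193 bases before the Sprr2d start. For Cxcl2 and Cxcl3 the RefSeq start is not the first base of the gene coordinates given above, which are from GENCODE. GGAATTTCC occurred in 94 of 32851 promoters in the table (0.286%) and TGANTCA in 2217 (6.75%). Ppbp held no GGAATTTCC and Cxcl2 and Cxcl3 no TGANTCA in these windows. Of the other genes searched, Cxcl1 held GGAATTTCC, and Sprr2f, Sprr2h and both promoters of Krt13, whose level was highest at day 0, held TGANTCA. Sprr3, Ltf and Prss27 held neither run. A match describes the letters and says nothing of a factor's binding. Cxcl5, Psca and Krt19 had no entry in the table.

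Antimicrobial and acute phase genes were divided. Between days 0 and 7, 6 of 12 were past 2-fold higher at day 7 (Lcn2, S100a8, S100a9, Saa1, Slpi, Wfdc2) and 1 lower (Pigr), with a median of 0.70. Between days 0 and 42, 2 of 10 were higher at day 42 (S100a8, Wfdc2) and 3 lower (median -0.61), and between days 7 and 42, 1 of 10 was higher (Ltf) and 6 lower (median -1.15). All genes tested gave 2.43% higher and 3.89% lower, 2.18% and 3.18%, and 1.4% and 1.01% in the same order of comparisons. Wfdc2, a whey acidic protein of mucosal secretions, was at 1286, 2588 and 2792 CPM, against 10.9 to 48.2 CPM in T cells. Slpi, a secreted inhibitor of leukocyte proteases, was at 21.7, 60.1 and 9.90 CPM. S100a8 and S100a9, whose products form calprotectin, were at 1.5, 367 and 48.2 CPM and at 107, 1069 and 196 CPM. Neutrophils carry both at very high levels, and T cells at day 7 held 1718 CPM of S100a8 and 2366 of S100a9, more than cluster 5. The whole neutrophil list of 12 genes summed to 117, 1545 and 281 CPM in cluster 5 and to 39.8, 5345 and 737 CPM in T cells, with 8 of its genes at 0 UMIs in cluster 5 at day 0 and none later. The share of neutrophil RNA in these values was not tested. Saa1 at day 7 had 98.0% of its UMIs in 10 cells, and colonocytes held it at 5625 CPM.

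Of the mucins and surface glycoproteins, 0 of 15 were past 2-fold higher at day 7 than at day 0 and 9 were lower, with a median of -1.28. Between days 0 and 42, 1 of 16 was higher (Muc1) and 4 were lower (Muc2, Muc3, Muc4, Upk1b), with a median of -0.79. For comparison, 2.43% of all genes tested were higher and 3.89% lower at day 7, and 2.18% and 3.18% at day 42. Muc4 was at 258, 13.6 and 60.7 CPM. Muc1, another membrane mucin, was at 5.23, 14.5 and 28.5 CPM. Muc2, the gel-forming mucin of goblet cells, had all its UMIs in 10 cells at days 0 and 7. The colonocyte list of 17 genes summed to 7146, 4733 and 7303 CPM in cluster 5, of which Lgals3, a galectin of squamous and columnar cells alike, gave 6275, 4363 and 6707 CPM, and Cdx2, the defining intestinal transcription factor, had 0 UMIs in cluster 5 on every day. Upk1b, a uroplakin of urothelium, had 44, 1 and 4 UMIs. Psca and Krt19 were past 2-fold lower at day 7 than at day 0, with log2 ratios of -1.98 and -1.29. Without its 10 richest cells the day 42 to day 0 ratio of Psca was -0.16 in place of -1.22.

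Of the proteases and their inhibitors, 4 of 24 were past 2-fold higher at day 7 than at day 0 (Klk13, Prss22, Slpi, Tmprss11g) and 1 lower (Spink5), and at day 42 1 was higher (Prss22) and 5 lower. Beside these stood 2.43% higher and 3.89% lower of all genes tested at day 7, and 2.18% and 3.18% at day 42. The 1 lower gene at day 7 was near that share. Prss22, a tryptase-like serine protease of airway and mucosal epithelium, was at 170, 702 and 765 CPM. It was 4.12 times (3.59 to 4.74) and 4.48 times (3.93 to 5.13) its day 0 level. Klk10 and Klk13, kallikrein proteases, were at 166, 234 and 16.9 CPM and at 106, 240 and 12.8 CPM, the lowest at day 42 in each case. Both had their day 0 UMIs in few cells, with 85.1% and 77.5% in 10 cells. Without such cells Klk10 was at -0.91 in place of -2.71 for days 42 and 0, and the day 42 to day 7 ratios of Klk10 and Klk13 were -2.92 and -3.19 in place of -3.18 and -3.45.

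Stmn2, which encodes the microtubule regulator stathmin-2 best known from neurons, had 4, 857 and 5200 UMIs, or 2.99, 249 and 280 CPM. With 4 counts at day 0 the fold is loosely bounded, at 83.2 (32.4 to 306) for day 7 and 93.5 (36.5 to 343) for day 42. Cluster 1 had it too, at 3.18, 200 and 628 CPM, above cluster 5 at day 42, and T cells had 0 to 12.1 CPM. Calcb, which encodes the nerve peptide beta-CGRP, was at 651, 947 and 1529 CPM, with a log2 ratio of 1.22 at day 42 against day 0. At day 42 cluster 1 held slightly more of it, with a log2 ratio of cluster 5 over cluster 1 of -0.14. Calcb and Stmn2 were the 2 tested members of a list of 10 nerve peptide and related genes. Akr1b8, an aldo-keto reductase of mucosa, was at 5.98, 127 and 116 CPM, and T cells had at most 6.03 CPM of it. It was not particular to cluster 5. The log2 ratio to the highest other keratinocyte cluster was -1.53 and 0.53 over cluster 3 at days 0 and 7 and -0.25 over cluster 12 at day 42. At day 7, 61.9% of its UMIs lay in 10 cells. Thinned cells with an Akr1b8 UMI made up 0%, 11.1% and 8.55% of cluster 5.

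Srgn and Ifitm1 were also among the 10 highest ratios to day 0 on both later days. Srgn, the proteoglycan core of leukocyte granules, was at 2.99, 163 and 222 CPM. Ifitm1, an interferon-induced membrane protein, was at 3.74, 151 and 228 CPM. T cells held more of both, with 3045 CPM of Srgn and 808 of Ifitm1 at day 7 and 2132 and 411 at day 42. Srgn in cluster 1 was at 1.96, 9.37 and 12.1 CPM, far under cluster 5 at days 7 and 42. Ifitm3, of the same family as Ifitm1, was at 203, 892 and 1100 CPM in cluster 5, against 50.7, 130 and 130 in T cells, and had a UMI in 14.0%, 50.6% and 51.0% of thinned cells. It was higher in cluster 1 than in cluster 5 on each day, at 1304, 1916 and 2109 CPM. Of the list of 20 interferon-stimulated genes, 5 were tested between days 0 and 7, with 2 higher at day 7 (Ifitm1, Ifitm3), 1 lower (Ifi27) and a median of -0.15. At day 42, 3 of 6 were higher than at day 0 (Gbp2, Ifitm1, Ifitm3) and 1 lower (Oasl1), with a median of 0.86. Higher and lower genes made up 2.43% and 3.89% of all tested at day 7, and 2.18% and 3.18% at day 42. Ly6a, a Ly6 surface protein known as a mark of regenerating gut epithelium, was at 361, 1395 and 1134 CPM.

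Some genes set day 42 apart from day 7. Tm4sf1, a tetraspanin-like surface protein, was at 92.7, 135 and 608 CPM, with 99.2% of its day 0 UMIs in 10 cells and 12.2% at day 42. Its day 42 level was 6.56 times that of day 0 (5.50 to 7.89). Tnfrsf11b, which encodes osteoprotegerin, a decoy receptor of the TNF family, was at 40.4, 36.9 and 198 CPM. Alox15, a lipoxygenase, was at 100.2, 19.2 and 205 CPM, and Slurp1, a secreted Ly6 family protein of keratinocytes, at 645, 146 and 570.2 CPM. Cyp2f2, a cytochrome P450, was at 734, 79.3 and 318 CPM, and Krt20 at 394, 122 and 470 CPM. These last 4 were lowest at day 7, and of the 4 only Cyp2f2 was past 2-fold between days 0 and 42, lower at day 42. Igfbp7, Pdlim4 and Kctd14 were likewise lowest at day 7 and were among the 10 highest at day 42 against day 7.

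A few class I antigen presentation genes were higher at day 42. Of that list, 0 of 9 were past 2-fold between days 0 and 7, and at day 42 3 of 11 were higher than at day 0 (B2m, Psmb10, Psmb8) and 0 lower, with a median of 0.52. Between days 7 and 42 the ratios of all 11 tested were above 0, with 3 past 2-fold (B2m, H2-K1, Psmb8). Over all genes tested, 6.32% passed 2-fold between days 0 and 7. At day 42, 2.18% were higher than at day 0 and 1.4% higher than at day 7. B2m, the shared light chain of class I molecules, was at 46.4, 42.4 and 180.2 CPM, and H2-K1, a heavy chain, at 249, 182 and 489 CPM. T cells, which carry much of both, had 1683, 1522 and 1886 CPM of B2m. Class I heavy chain genes are close copies of each other, so their counts are uncertain. In cluster 1 B2m was at 63.9, 80.7 and 210 CPM. No class II gene reached 20 CPM in cluster 5 on any day.

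Of the metabolic, oxidant and antioxidant enzymes, 4 of 22 were past 2-fold higher at day 42 than at day 0 (Gclc, Gclm, Txn1, Txnrd1), all of glutathione synthesis or the thioredoxin system, with 0 lower and a median of 0.29. In that comparison 2.18% of all genes tested were higher and 3.18% lower. Txn1 was at 1033, 2028 and 2126 CPM and Gclm at 43.4, 54.0 and 141 CPM. Of the alcohol, aldehyde and xenobiotic enzymes, 2 of 17 were higher and 5 lower at day 7 than at day 0 (against 2.43% and 3.89% of all genes tested), with a median of -0.83. Aldh1a3 was among those higher, at 413, 1148 and 744 CPM, whereas the related Aldh1a1 was at 80.8, 16 and 25.7 CPM and the reductase Cbr2 at 693, 152 and 555 CPM.

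Adhesion and cell identity genes were described against the 6.32%, 5.36% and 2.4% of all genes tested that passed 2-fold, and lists as short as these have few or none at that share. Of 9 desmosome genes tested, 0 passed 2-fold in any comparison, with medians from -0.17 to -0.03, and of 7 Notch pathway genes 0 did. The desmosome gene Dsp was at 1207, 911 and 947 CPM, and Trp63, the master regulator of squamous fate, at 89.0, 67.1 and 88.5 CPM. Among 24 transcription factors tested, 1 was higher (Cebpb) and 4 lower (Foxq1, Hopx, Klf3, Sox21) at day 7 than at day 0, and 0 were higher and 2 lower (Elf5, Hopx) at day 42, so 5 of 24 passed 2-fold at day 7. Hopx, a homeobox cofactor of differentiating cells, was at 802, 137 and 152 CPM. Of the proliferation list, 3 of 11 were higher at day 7 (Birc5, Rrm2, Ube2c) and 0 of 5 tested at day 42. Ube2c had 8 UMIs at day 0 and 86.0% of its day 7 UMIs in 10 cells. The dissociation and early response list of 18 genes had 2 higher in each comparison with day 0 and a median of 0.11 at day 7 and 0.39 at day 42.

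**Figure D5:**
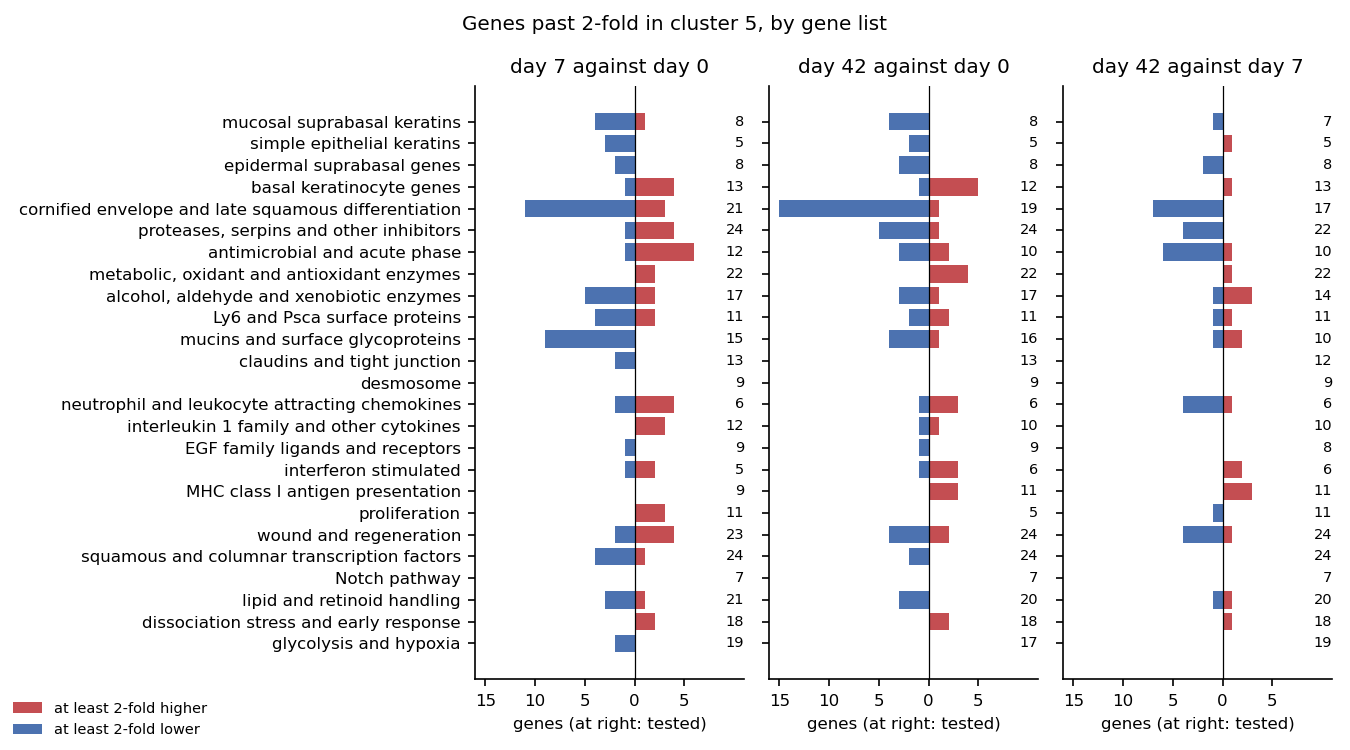
For each gene list with at least 5 members tested in all 3 comparisons, the number of genes at least 2-fold higher (right) and at least 2-fold lower (left) in cluster 5, with the number tested at the right edge. Of the cornified envelope genes 11 are lower at day 7 and 15 at day 42 than at day 0, and desmosome and Notch genes have 0.

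Some genes past 2-fold in cluster 5 were also past it in other cells of the same libraries, and their numbers are set beside the share of all genes tested in cluster 5 that were past 2-fold the same way there. Of the 128 genes higher at day 7, 79 were higher in cluster 12 (61.7%, against 16.2% of all genes tested), 64 in cluster 3 (50%, against 3.27%), 25 in cluster 1 (19.5%, against 0.968%), 46 in colonocytes (35.9%, against 3.63%) and 35 in T cells (27.3%, against 3.04%). Of the 117 higher at day 42 than at day 0, the numbers were 69 in cluster 12 (59.0%, against 15.5%), 49 in cluster 3 (41.9%, against 2.16%), 58 in cluster 1 (49.6%, against 3.98%), 20 in colonocytes (17.1%, against 1.10%) and 22 in T cells (18.8%, against 3.02%). Of the 171 lower at day 42 than at day 0, 45 were lower in cluster 12 (26.3%, against 4.41%), 23 in cluster 3 (13.5%, against 0.670%), 19 in cluster 1 (11.1%, against 0.763%), 1 in cluster 4 (0.585%, against 0.0372%), 6 in colonocytes (3.51%, against 0.261%) and 15 in T cells (8.77%, against 4.49%), where 15 others were higher. Low genes vary by counting error in each of these groups, and the part of free RNA shared within a library was not tested. T cells and cluster 12 were the shallowest of the groups named here on each day. Krt14 was at 5839, 8124 and 14208 CPM in cluster 1, lowest at day 0 as in cluster 5. Krt4 was lower there too, at 455, 153 and 59.4 CPM, while in cluster 4, which carries the epidermal suprabasal genes, it was at 1420, 847 and 1214 CPM. Krt13, in contrast, was at 252, 256 and 535 CPM in cluster 1, highest at day 42, where T cells also held 186 CPM against 9.05 at day 0.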

How the data were processed

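Droplet libraries of 3' ends were made from pooled distal colon and anus, 1 per day, per the labels' protocols. The authors deposited whole-number counts per gene and cell, unnormalized, and a cell table with day, cluster number and cell type name. The deposited size factor is a ratio, each cell's total over 5283.43. Cell Ranger 3.0.2 and build mm10 are named in the submitters' processing notes. The cell filter, clustering, naming and doublet treatment are not given in the sources used here.

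UMIs of cluster 5 cells were summed per library and divided by their total. The main log2 ratio added 10 CPM. Intervals (exact Poisson, exact Clopper-Pearson, 95%) cover counting error only. With 1 library per day no test across days was run. Simulated data were used to check the fold calculation. Of 31053 gene identifiers, 31011 (99.9%) were found in GENCODE M21, the source of gene coordinates.

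Named genes were the 6 markers, the 15 highest above other keratinocyte clusters, the 10 highest and 10 lowest per comparison with at least 100 CPM, and list members with at least 20 CPM. The rankings left out genes of mitochondria, ribosomal proteins, globins, immunoglobulins and sex chromosome dosage (Xist and Y-linked). The values of 1 of the 6 markers are not reported here, though sums and counts over the 6 include it. The members and lists were chosen with earlier results of these data known. Doublets were not removed. Scrublet's own threshold marked 433, 0 and 275 cells, so the 5% of cells with the highest score, which held 1, 3 and 78 of cluster 5, were left out as an alternative. Other alternatives changed the cells kept, the scaling, the pseudocount, the filter on low values and the depth. The scripts used scanpy 1.11.5 and scipy 1.17.1 with pandas 2.3.3, numpy 2.4.6, matplotlib 3.10.9 and Python 3.11.15. No column of per-sample values was left unused.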

Additional observations from a re-analysis of the deposited data

Results flagged for a closer look

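For 4 gene lists the day 42 against day 0 medians of cluster 5 and cluster 1 lay on opposite sides of 0 by more than 0.5, and the difference was not tested. For the mucosal suprabasal keratins the median log2 ratio was -1.15 in cluster 5 and 1.45 in cluster 1. For the simple epithelial keratins it was -0.55 and 1.03, for the antimicrobial and acute phase genes -0.61 and 2.36, and for the mucins and surface glycoproteins -0.79 and 1.02. The medians of the simple keratins run over the same 5 genes in both clusters, but in the 3 new clusters made mostly of cluster 5 cells their median was 0.44, on the same side of 0 as in cluster 1. Those of the other lists run over different members, 8, 10 and 16 genes in cluster 5 and 5, 5 and 6 in cluster 1. A gene could also reach 20 CPM in cluster 1 through day 42 alone, so none of these medians bears on a difference between the clusters. Over the members with a mean of at least 20 CPM over both days in each cluster, which still lets in genes such as Ltf that are high in cluster 1 at day 42 alone, the medians were -0.32 and 1.86 for 4 mucosal keratins. They were 0.82 and 2.36 for 5 antimicrobial genes and 0.02 and 1.02 for 6 surface glycoproteins, and nothing is drawn from their signs. Cluster 1 held 252 CPM of Krt13 and 2.94 of Ltf at day 0 and 535 and 60.2 CPM at day 42. T cells held 9.05 CPM of Krt13 and 0 of Ltf at day 0 and 186 and 35.1 CPM at day 42. The part of free RNA in the cluster 1 medians was not tested.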

How the results depend on the processing

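No paired analysis was possible because there was 1 library per day. Of 111 shares and counts under the alternatives, 65 stayed close to the reported value and 46 moved. With cells filtered at 1000 UMIs, 500 genes and 20% mitochondrial UMIs, cluster 5 was 1.16%, 1.41% and 22.5% of all cells at days 0, 7 and 42, and 73 genes in place of 36 were above every other keratinocyte cluster at day 42. The new Leiden cluster with most cluster 5 cells, which held 31.8% of them and 26 cells at day 0, gave 0.784%, 1.07% and 8.61% of keratinocytes and 0.236%, 0.675% and 5.88% of all cells. The 3 new clusters mostly of cluster 5, chosen after seeing the data, gave 4.37%, 5.71% and 21.6% of keratinocytes and 1.31%, 3.59% and 14.8% of all cells. Clusters 5 and 12 together, also chosen after seeing the data, gave 4.16%, 20.3% and 28.9% of keratinocytes and 1.25%, 12.7% and 19.8% of all cells. In that order of higher then lower genes, the new Leiden cluster gave 481 and 388 for days 7 and 0, 246 and 218 for days 42 and 0, and 183 and 121 for days 42 and 7. The 3 clusters gave 132 and 130 for days 42 and 0 and 155 and 117 for days 42 and 7. Thinned cells gave 768 and 1218, 630 and 647, and 398 and 186. A pseudocount of 1 CPM gave 209 and 349, 222 and 247, and 119 and 84. A minimum of 100 CPM, which tests fewer genes, gave 49 and 91, 44 and 74, and 31 and 26.

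Of 900 list medians 766 stayed close, 133 moved and 1 reversed: the simple epithelial keratins at day 42 against day 0 were at 0.44 in the 3 new clusters. Those clusters moved 32 list medians and left 42 close, and the new Leiden cluster moved 31 and left 44 close. Of 1302 single-gene values 782 stayed close, 519 moved and 1 reversed: Saa1 at day 42 against day 7 was at 0.24 without the 10 cells with most UMIs. Leaving out those 10 cells moved 92 single-gene values and left 14 close, and the 3 new clusters moved 92 and left 15 close. The cause of either reversal was not tested. Under size factors 128 of 128 higher and 173 of 205 lower genes were still past 2-fold at day 7 against day 0, 111 of 117 and 171 of 171 at day 42 against day 0, and 58 of 72 and 52 of 52 at day 42 against day 7. Other alternatives kept fewer. In the same order, the 3 new clusters kept 96 and 160, 85 and 94, and 62 and 30. Thinned cells kept 90 and 146, 90 and 122, and 54 and 42. Depth limits low genes most at day 0, where 87 cells gave 1337459 UMIs.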
